A study of Mus musculus with 5 samples.

Results

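Potassium channel genes were followed in sorted hair follicle stem cells from mice in which Polycomb repressive complex 1 (PRC1) was removed by induction and from their controls. The members are the protein-coding genes of the deposited table whose symbol starts with Kcn, and there were 71 of them among 17431 protein-coding features and 30840 features in all. RNA came from back skin of mice at postnatal day 70, and the libraries fall into 2 groups. The Control group (2 libraries, numbered 2 and 3) had the genotype Ring1a-/-, Ring1bflox/flox. The PRC1 i2KO group (3 libraries) had the genotype K15-CrePR1:Ring1a-/-, Ring1bflox/flox, in which a keratin 15-driven Cre recombinase that responds to RU-486 deletes Ring1b. All mice, controls included, were thus labelled Ring1a-/- and were treated on the skin with 1% RU-486 daily for 10 days from postnatal day 50. The deletion is directed to keratin 15-expressing cells, and the PRC1 i2KO group differs from Control by the transgene as well. In addition, no label says that libraries of a group came from separate animals. The p-values therefore describe spread between these libraries, which may be technical. For each library 50000 cells were sorted as EpCAM-positive, CD34-positive, α6-integrin-high and Sca1-negative.

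Potassium channels let potassium ions leave or enter the cell along their gradient and so set the resting membrane potential, the length of electrical signals and cell volume. Voltage-gated (Kv) channels open on depolarisation, inward rectifiers (Kir) hold the resting potential, tandem pore-domain (K2P) channels carry leak current, and a further class opens with intracellular calcium or sodium. Auxiliary subunits alter the trafficking and gating of these pores. Channel genes of excitable cells are silent in most epithelia, and many developmental genes silent outside their lineage carry the histone mark H2AK119ub, which PRC1 deposits through Ring1a or Ring1b. The study asks how that mark relates to quiescence of these stem cells.

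Total deposited counts ranged from 11626313 to 43307892, with Control 3 the shallowest library. At gene level the Ring1b gene, Rnf2, was at 27.7 and 37.5 CPM in Control against 39.9, 33.1 and 36.4 CPM in PRC1 i2KO 1, 2 and 3 (log2 fold change 0.16 ± 0.25 SE, edgeR adjusted p = 0.870), while its TPM was 25.1 and 24.4 against 16.8, 12.9 and 11.7. CPM are counts scaled to library size, and TPM are the authors' values scaled for transcript length as well. Reads of the Ring1a gene, Ring1, were present in every library, at 1.18 and 2.35 TPM in Control against 0.911, 0.808 and 1.57 TPM (edgeR adjusted p on counts = 0.884). Gene-level values pool deleted and retained exons and do not check the labels. Bulge markers were abundant in every library, with Krt15 between 3418 and 5076 CPM, while Cd34, a marker of the sort, was at 477 and 326 CPM in Control against 298, 292 and 164 CPM, lower throughout (edgeR adjusted p = 0.422). Mitochondrial ribosomal RNA took 16.7% and 22.6% of counts in Control against 29.7%, 21.4% and 32.0% in PRC1 i2KO.

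Most potassium channel genes were low or undetected in these cells, and neither group stood above the other as a whole. Of the 71 genes, 41 and 42 reached 0.1 TPM in Control against 44, 44 and 45 in the PRC1 i2KO libraries. Set against this level, 19 genes were under 0.1 TPM in both controls (called silent below), 31 were at or above it in both (called expressed), and 21 passed it in a single control. The 28 Kv genes held 8 silent and 10 expressed members, the 13 Kir genes 3 and 4, the 9 K2P genes 3 and 5, the 8 calcium- or sodium-activated genes 1 and 6, and the 13 auxiliary or regulatory genes 4 and 6. The summed TPM of all 71 genes was 206 and 143 in Control against 123, 191 and 121 in the PRC1 i2KO libraries, so the groups overlapped.

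No member passed the edgeR test across the whole table. Of the 50 potassium channel genes that passed the filter on low counts, 0 were higher and 0 lower in PRC1 i2KO by edgeR's quasi-likelihood test (adjusted p under 0.05 over 22181 genes), where 0.126% of all tested genes were called higher and 0% lower. At an unadjusted p under 0.05, 4 members were higher (Kcna1, Kcnk1, Kcne3 and Kcnip2, all silent in control) and 1 was lower (Kcnc4), against 7.43% and 3.51% of all tested genes. Those 4 had no control count and passed the filter only through PRC1 i2KO reads, which leaves little room to be lower. Of 390 tested protein-coding genes silent in control, 204 were higher and 2 lower at that unadjusted p. DESeq2 called 1 member higher, Kcna1, and 0 lower, with 3.43% and 0.75% of its genes called. Limma-voom called 0 members (0.018% and 0% of all genes), and limma on log2(TPM + 1) also called 0 members and 0% of all features in either direction. In CPM 8 of the 50 tested members lay higher in every PRC1 i2KO library than in either control and 7 lay lower, an order shown by 14.6% and 15.3% of all tested genes. Of the 15041 protein-coding genes tested, 2837 lay higher throughout and 1696 lower. By edgeR at an unadjusted p under 0.05, 1482 of them were higher and 384 lower.

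**Figure D1:**
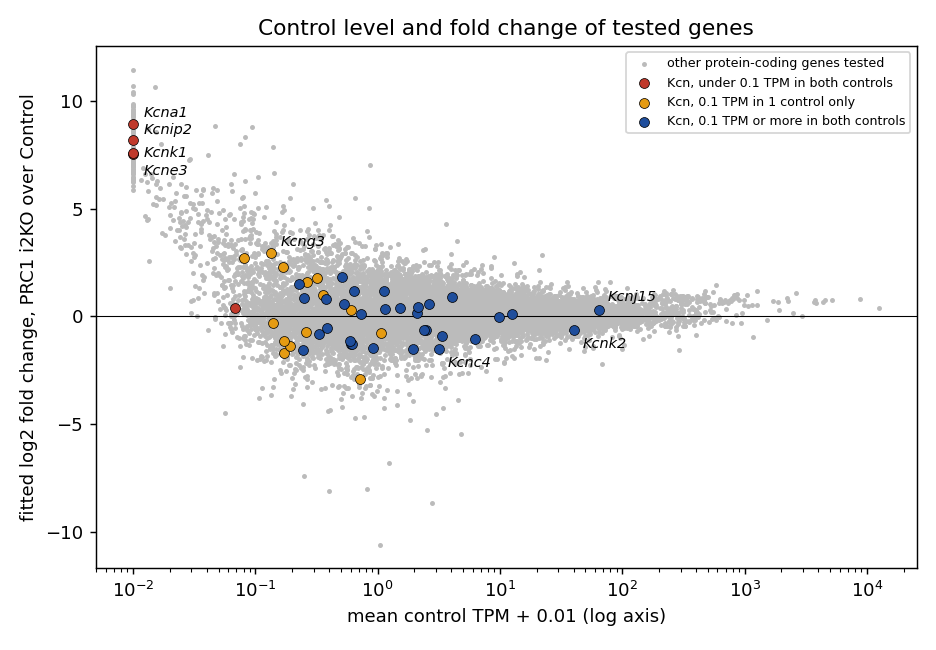
Fitted log2 fold change (PRC1 i2KO over Control, vertical axis) against mean control TPM + 0.01 (log axis) for the 50 tested potassium channel genes and the other protein-coding genes tested; each point is 1 gene. The 4 members at the left edge had no control count, so their fitted values depend on the test's prior count and are no measure of fold, and the expressed members lie on both sides of 0 within the cloud of other genes.

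Kcna1 had the smallest p of all members. It encodes a voltage-gated channel of axons that limits repetitive firing, and mutations in the human gene cause episodic ataxia. Both controls held 0 counts, and PRC1 i2KO 1, 2 and 3 held 32, 98 and 66 counts, equal to 1.47, 2.21 and 2.09 CPM or to 0.331, 0.685 and 0.430 TPM. All 3 PRC1 i2KO libraries thus lay above both controls, at a low level with little spread (1.92 ± 0.399 CPM, SD, n = 3). At that mean, Control 2 would have held 94.6 counts and Control 3 would have held 24.2. Set against a floor of 3 counts over both controls (0.0485 CPM), the PRC1 i2KO mean was at least 39.6-fold higher. That bound covers counting error in the controls only. By edgeR the difference did not pass (adjusted p = 0.134). It passed by DESeq2 (adjusted p = 0.000378) and by edgeR with no filter on low counts (adjusted p = 0.0453), where 0.457% of all features were called higher and 0.0392% lower (among members 1 higher and 0 lower). Among the other alternatives, which included each library left out in turn, the adjusted p lay between 0.0583 and 0.808. The 7 neuronal markers in the table summed to 11.2 and 11.7 CPM in Control against 9.53, 27.0 and 22.9 CPM in PRC1 i2KO, nearly all of it Map2, and the other 6 did not exceed 0.550 CPM in any library. Of the 7 Merkel cell markers in the table, 4 lay above both controls in every PRC1 i2KO library, an order shown by 14.6% of all tested genes. Among them Isl1 was at 0 and 0 against 0.871, 0.857 and 3.19 CPM, Sox2 at 0 and 0 against 0.596, 0.293 and 0.348 CPM, and Piezo2 at 1.97 and 1.82 against 12.6, 14.5 and 17.0 CPM. Isl1, Sox2 and Krt8 were under 0.1 TPM in both controls, which leaves little room to be lower. Of 390 tested protein-coding genes silent in control, 189 lay higher throughout in CPM. Krt18, Krt20 and Chga overlapped between the groups, with Chga at 0.528 and 0.714 against 0.275, 0.857 and 0.221 CPM. The part of such cells in the Kcna1 reads was not tested.

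Reads of the other tested members silent in control varied widely between the PRC1 i2KO libraries. Kcnk1, a K2P leak channel of epithelia and brain, had 0 counts in both controls and 14, 6 and 46 counts in PRC1 i2KO 1, 2 and 3 (0.230, 0.0625 and 0.561 TPM, edgeR adjusted p = 0.282). Kcne3, a small membrane subunit that keeps the Kcnq1 channel open in epithelia, had 0 control counts and 8, 76 and 3 counts (0.354, 1.94 and 0.0899 TPM, adjusted p = 0.315). Kcnip2, a calcium-binding subunit of the Kcnd channels that is abundant in heart, had 0 control counts and 0, 129 and 17 counts (0, 5.31 and 0.201 TPM, adjusted p = 0.367). In CPM Kcnip2 was at 0, 2.91 and 0.538, and the transcript length implied by count over TPM differed 4.14-fold between PRC1 i2KO 2 and 3. Every library was above the controls for Kcnk1 and Kcne3, and PRC1 i2KO 1 stayed at 0 for Kcnip2. PRC1 i2KO 2 held most of the reads of Kcne3 and Kcnip2, and PRC1 i2KO 3 most of those of Kcnk1. Against the same floor the PRC1 i2KO means were 23.7-fold higher for Kcnip2, 15.3-fold for Kcnk1 and 15.0-fold for Kcne3. The floor covers counting error in the controls only. These folds are no lower bounds, as the PRC1 i2KO libraries spread widely (1.15 ± 1.55, 0.744 ± 0.666 and 0.725 ± 0.867 CPM, SD, n = 3).

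Marker levels also differed between these libraries. The 12 markers of differentiating epidermis summed to 1945 and 1794 CPM in Control against 1685, 3612 and 2242 CPM in PRC1 i2KO 1, 2 and 3, with 4 of 12 above both controls throughout and 1 below. The 12 mitosis genes summed to 25.1 and 76.2 CPM in Control against 348, 70.1 and 765 CPM in PRC1 i2KO, with 6 of 12 higher throughout and 0 lower. Over all tested genes 14.6% lay higher throughout and 15.3% lower. PRC1 i2KO 2 was the highest library for epidermal markers and for Kcne3 and Kcnip2. PRC1 i2KO 3 was the highest for mitosis genes and for Kcnk1. Both lists were added after the values were seen, so a shared highest library is a description only. The part of differentiating or dividing cells in the channel values was not tested. In bulk RNA, fewer cells of a type and less RNA per cell cannot be told apart.

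The remaining silent members held few reads, and only Kcna2 was tested among them. Kcnj3 and Kcnj4, inward rectifiers of heart and brain, had 0 control counts and 19, 3 and 2 or 3, 0 and 10 counts in PRC1 i2KO. Kcna4, a fast-inactivating Kv channel, had 1 count in each control and 14, 8 and 4 counts in PRC1 i2KO. Kcnh2, whose channel ends the cardiac action potential, had 0 control counts and 1, 12 and 3 counts, and Kcnh6 had 7 counts in PRC1 i2KO 1 alone. Kcnmb3 had no count in any library. The rest, among them Kcnh4, Kcnd2, Kcnt2, Kcnk9, Kcnip1, Kcnj12 and Kcnk4, were under 0.05 TPM in every PRC1 i2KO library, apart from Kcna2, an axonal Kv channel at 0.0752, 0.0212 and 0.144 TPM (log2 fold change 0.41 ± 1.22, edgeR adjusted p = 0.943).

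**Figure D2:**
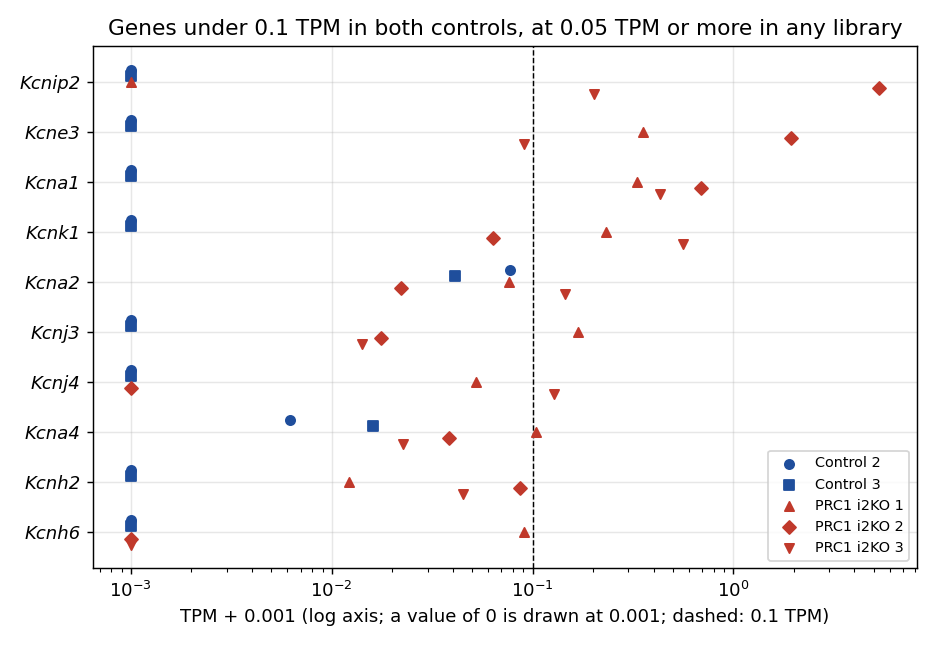
TPM + 0.001 (log axis) in each of the 5 libraries for those of the 19 genes under 0.1 TPM in both controls that reached 0.05 TPM in any library (10 genes); blue points are Control, red points PRC1 i2KO, and the dashed line marks 0.1 TPM. Kcna1 has all 3 PRC1 i2KO libraries to the right of the line, from 0.331 to 0.685 TPM, and Kcnh2 has no point beyond it, with all 3 PRC1 i2KO libraries above the controls.

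The share of silent channels that reached 0.1 TPM lay near that of all protein-coding genes silent in control. In all 3 PRC1 i2KO libraries this level was reached by 1 of the 19, Kcna1, against 6.55% of the 2016 protein-coding features under 0.1 TPM in both controls. In 2 or more libraries it was reached by 4 (Kcna1, Kcnk1, Kcne3 and Kcnip2), against 18.3%, and in 1 or more by 8, against 50%. The remaining 11 stayed under it throughout. In TPM 6 of the 19 (Kcna1, Kcna4, Kcne3, Kcnh2, Kcnj3 and Kcnk1) lay above both controls in every PRC1 i2KO library, an order that 13.3% of those features showed. The choice by control level leaves a silent gene little room to be lower, so these shares are a description and were not tested. Just inside the level stood Kcnj12 (0.0455 and 0 TPM in the controls), Kcnk4 (0.0469 and 0.0451) and Kcna2 (0.0759 and 0.0402), and just outside it Kcnt1 (0.00746 and 0.107) and Kcnj9 (0.202 and 0.0332).

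**Figure D3:**
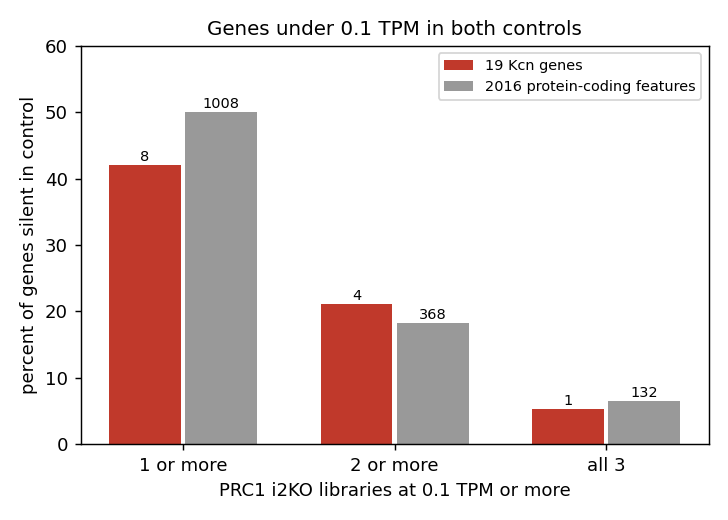
Percent of genes under 0.1 TPM in both controls that were at 0.1 TPM or more in at least 1, at least 2 or all 3 PRC1 i2KO libraries; red bars are the 19 potassium channel genes, grey bars all 2016 such protein-coding features (the 19 included), and the number over a bar is its gene count. The red bar lies below the grey one at 1 or more and at all 3 libraries and above it at 2 or more.

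PRC1 and its sister complex are recruited to promoters rich in CpG dinucleotides, so the bases before the annotated starts were examined. RefSeq windows of assembly GRCm38.p6 were found for 51 of the 71 genes, and the 250 bases before the start were used, taking the window with most CpG where a gene has several. These 4 members are shown because they carry the contrast in level: 3 that were silent in control and gained reads, and the most abundant channel. Each sequence runs 5′ to 3′ on the gene's strand, with each CpG (CG, which reads the same on both strands) in capitals.
Kcnk1, chr8:125994852-125995101, plus strand: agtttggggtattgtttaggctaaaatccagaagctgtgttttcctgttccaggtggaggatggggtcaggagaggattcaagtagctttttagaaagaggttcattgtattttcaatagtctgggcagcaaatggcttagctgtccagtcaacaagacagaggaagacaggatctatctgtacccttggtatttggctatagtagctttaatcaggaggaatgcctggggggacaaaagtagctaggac
Kcne3, chr7:100178433-100178682, plus strand: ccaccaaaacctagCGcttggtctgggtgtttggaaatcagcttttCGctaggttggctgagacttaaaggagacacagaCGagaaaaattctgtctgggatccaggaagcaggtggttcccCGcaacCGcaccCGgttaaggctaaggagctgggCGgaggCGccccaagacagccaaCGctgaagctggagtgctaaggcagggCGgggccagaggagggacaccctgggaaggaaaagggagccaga
Kcnip2, chr19:45816064-45816313, minus strand: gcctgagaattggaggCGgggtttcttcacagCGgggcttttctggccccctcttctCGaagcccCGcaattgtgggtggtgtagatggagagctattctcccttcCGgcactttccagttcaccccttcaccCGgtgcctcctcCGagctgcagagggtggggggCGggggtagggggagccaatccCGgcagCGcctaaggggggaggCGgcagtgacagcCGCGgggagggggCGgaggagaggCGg
Kcnj15, chr16:95257308-95257557, plus strand: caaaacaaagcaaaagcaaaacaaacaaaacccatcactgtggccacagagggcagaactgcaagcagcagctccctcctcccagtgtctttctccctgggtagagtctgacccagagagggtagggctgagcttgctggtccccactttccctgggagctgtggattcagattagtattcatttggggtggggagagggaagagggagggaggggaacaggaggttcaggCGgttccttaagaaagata
The windows differ widely, with 0 CpG before Kcnk1, 10 before Kcne3, 15 before Kcnip2 and 1 before Kcnj15. None of these 4 windows overlaps an annotated exon.

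CpG content is given as a description, with no test. The median window held 13 CpG over the 16 silent channel genes with a window and 5 over 1448 protein-coding genes silent in control. At least 10 CpG stood in 11 of those 16 windows, against 33.4% of windows of silent protein-coding genes and 65.2% of all 13335 protein-coding genes with a window. The 24 expressed channel genes had a median of 13 as well, against 16 over protein-coding genes expressed in control. Among the silent channel genes, those with every PRC1 i2KO library above both controls had at least 10 CpG in 3 of 5 windows and a median of 10, and the others in 8 of 11 windows and a median of 15. Kcna1 has no window in the table.

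**Figure D4:**
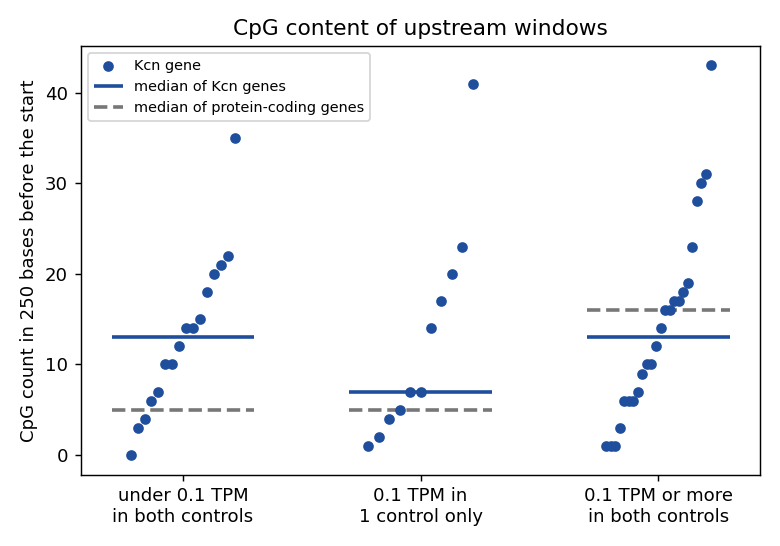
CpG count in the 250 bases before the annotated start (vertical axis) for each potassium channel gene with a window, by control level; blue points are genes, blue lines their medians, and grey dashed lines the medians of all protein-coding genes of the same control level. The blue median of 13 lies above the grey one of 5 for silent genes and below the grey one of 16 for expressed genes.

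Kcnj15 and Kcnk2 were the most abundant potassium channel genes in both groups. Kcnj15, an inward rectifier of epithelia, was at 79.0 and 49.6 TPM in Control against 60.2, 90.0 and 56.1 TPM in PRC1 i2KO 1, 2 and 3. The groups overlapped in TPM, whereas in CPM all PRC1 i2KO libraries (358, 342 and 302) lay above the controls (302 and 239), PRC1 i2KO 3 above Control 2 by a narrow margin (log2 fold change 0.31 ± 0.18 SE, edgeR adjusted p = 0.586). Kcnk2, a K2P channel opened by membrane stretch, heat and lipids, was at 49.6 and 30.3 TPM in Control against 18.2, 26.1 and 10.3 TPM in PRC1 i2KO. All PRC1 i2KO libraries lay below both controls, in CPM too (105 and 89.3 against 73.0, 82.6 and 35.0). The log2 fold change of Kcnk2 was -0.61 ± 0.33 (adjusted p = 0.557) and did not pass, with PRC1 i2KO 3 the lowest library. Kcnj15 (64.3 ± 20.8 TPM in Control, SD, n = 2) was above Kcnk2 (39.9 ± 13.7 TPM) within each of the 5 libraries.

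Kcnma1 and Kcnh1 followed at lower levels. Kcnma1, the large-conductance channel opened by voltage and calcium, was at 14.9 and 10.1 TPM in Control against 4.65, 9.59 and 7.12 TPM in PRC1 i2KO, below both controls throughout. Its CPM overlapped, at 55.3 and 22.8 against 32.0, 56.8 and 39.6 (log2 fold change 0.13 ± 0.39, adjusted p = 0.946), and the transcript length implied by count over TPM differed 2.79-fold between libraries. Kcnh1, a Kv channel often expressed in dividing and tumour cells, was at 13.4 and 6.36 TPM against 6.39, 10.5 and 7.40 TPM, with overlapping groups (adjusted p = 0.969). Kcnh1 was highest in Control 2, the library with the lowest sum of mitosis genes. That list was added after the values were seen, and a relation of Kcnh1 to it was not tested.

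Auxiliary and regulatory genes differed in both directions, and none passed the threshold. Kcnmb4, the neuronal β subunit of the Kcnma1 channel, was at 4.62 and 3.48 TPM in Control against 4.99, 10.2 and 7.21 TPM in PRC1 i2KO, higher in every library (log2 fold change 0.92 ± 0.46, adjusted p = 0.518). Kcnmb1, the β subunit typical of smooth muscle, was at 0.762 and 1.06 TPM against 0.128, 0.565 and 0.175 TPM, lower in every library (-1.47 ± 0.80, adjusted p = 0.556). Kcnip3, a calcium sensor that also acts in the nucleus as a repressor, was at 0.614 and 0.388 TPM against 1.51, 0.764 and 1.89 TPM (1.83 ± 0.89, adjusted p = 0.499). Both groups separate for Kcnip3 in TPM, but in CPM Control 3 (1.11) lay just above PRC1 i2KO 2 (1.08). Kcnrg, a cytoplasmic regulator of Kv channels and no channel itself, was at 5.39 and 7.05 TPM against 3.46, 2.36 and 1.46 TPM (-1.04 ± 0.55, adjusted p = 0.545). In CPM Kcnrg overlapped between the groups (7.41 and 12.9 against 7.70, 4.08 and 2.94).

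Kcnc4 had the smallest p among channels expressed in control. It encodes a fast-activating Kv channel of neurons and muscle, and stood at 3.95 and 2.35 TPM in Control against 0.351, 1.28 and 1.07 TPM in PRC1 i2KO (11.7 and 9.36 against 1.65, 4.69 and 4.71 CPM). Both groups were separate on either scale, with PRC1 i2KO 1 the lowest, but the difference did not pass (-1.51 ± 0.56, edgeR adjusted p = 0.369). Kcnd3, a Kv channel of heart and brain, overlapped in TPM (0.696 and 1.54 against 0.902, 1.62 and 1.31) and was higher throughout in CPM (2.03 and 4.28 against 5.68, 7.13 and 8.70, adjusted p = 0.490).

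Among the remaining inward rectifiers, K2P and calcium-activated genes the fitted log2 fold changes went in both directions. Kcnj2, which sets the resting potential of muscle, overlapped between the groups, at 3.67 and 1.53 TPM against 2.11, 3.71 and 3.28 TPM. Kcnj13, an epithelial rectifier of low conductance, was lower in every PRC1 i2KO library in TPM, at 2.87 and 3.81 against 0.614, 1.38 and 2.38 TPM (-0.92 ± 0.75, adjusted p = 0.722). Kcnk10, a mechanosensitive relative of Kcnk2, was lower in TPM as well, at 2.84 and 2.10 against 1.12, 1.55 and 1.20 TPM (-0.63 ± 0.55, adjusted p = 0.740). Its CPM overlapped. Kcnn3, a small-conductance calcium-activated channel, ranged from 0.136 to 1.12 TPM between the controls alone and from 0.520 to 1.43 TPM in PRC1 i2KO. Its relatives Kcnn2 and Kcnn4 lay lower in every PRC1 i2KO library in TPM and CPM (edgeR adjusted p = 0.781 and 0.876). No expressed gene of these classes lay higher throughout in TPM, an order shown by 7.13% of protein-coding genes expressed in control, where 20.7% lay lower.

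**Figure D5:**
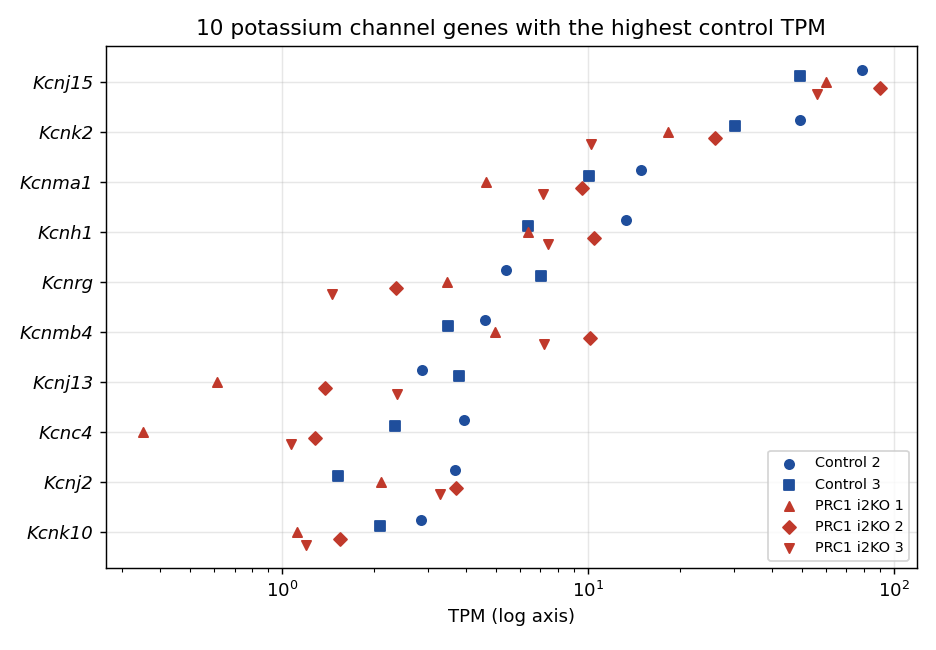
TPM (log axis) in each library for the 10 potassium channel genes with the highest control mean; blue circles and squares are Control 2 and 3, red triangles and diamonds PRC1 i2KO. Kcnk2, Kcnma1, Kcnrg, Kcnj13, Kcnc4 and Kcnk10 have every red point left of both blue ones, Kcnmb4 has every red point to the right, and Kcnj15, Kcnh1 and Kcnj2 overlap. In CPM Kcnma1, Kcnrg, Kcnj13 and Kcnk10 overlap as well, and 20.7% of protein-coding genes expressed in control lie lower throughout in TPM.

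Over the 31 expressed channels the log2 fold changes centred near 0. The median was 0.09, with 16 positive and 15 negative and a range from -1.58 to 1.83, beside a median of 0.08 over 13734 protein-coding genes expressed in control. In CPM 7 of the 31 (Kcnc1, Kcnc4, Kcnip4, Kcnk2, Kcnmb1, Kcnn2 and Kcnn4) lay lower in every PRC1 i2KO library and 3 (Kcnd3, Kcnj15 and Kcnmb4) higher, where 12.1% and 18.2% of those protein-coding genes did. In TPM 13 lay lower and 3 (Kcnip3 and Kcnmb4 among them) higher, against 20.7% and 7.13% of protein-coding genes expressed in control. TPM were shifted down for genes at large (median difference -0.18 on the log2(TPM + 1) scale over all 25279 features fitted), and the channels were shifted by -0.20 on that scale. On log2(TPM + 0.1) the median was -0.62 over the channels and -0.26 over protein-coding genes expressed in control, a difference that was not tested. Without Control 3 the median in counts was -0.22 over the expressed channels and 0.097 over protein-coding genes expressed in control. That difference was not tested either.

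The 21 channels above 0.1 TPM in a single control mostly overlapped between the groups. Kcna7, a Kv channel of muscle, had 0 and 41 counts in Control 2 and 3 and 0, 20 and 5 counts in PRC1 i2KO. Kcnb2, a delayed rectifier, had 191 and 0 counts in Control against 158, 474 and 398 counts, or 3.88 and 0 against 7.24, 10.7 and 12.6 CPM (2.31 ± 1.14, adjusted p = 0.509). Kcnb2 was 1 of 2 members of these 21 with every PRC1 i2KO library above both controls in CPM. That order was shown by 14.6% of all tested genes, and 14 of the 21 were tested. Kcng3, a modifier subunit that conducts only with Kcnb partners, had 1 and 11 counts against 177, 45 and 8, PRC1 i2KO 1 being far above the rest. Kcnj9 and Kcnt1 had 31 and 1 or 2 and 3 control counts and none in PRC1 i2KO. Merkel cell markers summed to 2.56 and 2.78 CPM in Control against 17.8, 17.7 and 23.9 CPM in PRC1 i2KO, with 4 of the 7 measured higher throughout (Piezo2, Krt8, Isl1 and Sox2). Krt8, Isl1 and Sox2 were under 0.1 TPM in both controls. Of 390 tested protein-coding genes silent in control, 189 lay higher throughout in CPM. Krt18 and Chga overlapped between the groups, and Krt20 was at or near 0. Their part in the channel values was not tested.

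Genes that work beside potassium channels were read from lists by name. Of 12 tested partners not named Kcn, 0 passed and 0 had an unadjusted p under 0.05, among them the channel-associated peptidase-like protein Dpp6 (1.58 and 1.11 against 0.458, 0.271 and 0.190 CPM, edgeR adjusted p = 0.477). Of 23 tested pumps, cotransporters and their kinases 0 passed, and at an unadjusted p under 0.05 there were 8 higher and 1 lower, against 7.43% and 3.51% of all tested genes. Atp1b1, the β subunit of the sodium-potassium pump, was at 3.37 and 6.58 CPM in Control against 30.5, 15.3 and 20.8 CPM in PRC1 i2KO, higher in every library (adjusted p = 0.152). The lower gene was Wnk4, a kinase that controls chloride and potassium transport, at 79.6 and 70.7 against 22.5, 36.9 and 20.0 CPM (log2 fold change -1.50 ± 0.29, adjusted p = 0.134). Of 11 tested sodium channel genes 0 passed, and 4 were higher and 0 lower at an unadjusted p under 0.05. Among these 4 were the epithelial sodium channel subunits Scnn1a, Scnn1b and Scnn1g. Of 15 tested calcium channel genes 0 passed, with 3 higher and 0 lower unadjusted. Among the higher genes, Cacna1g, Cacna1h and the pump subunit Atp1b2 were under 0.1 TPM in both controls, which leaves little room to be lower. Of 390 tested protein-coding genes at that level, 204 were higher and 2 lower unadjusted. Over all tested genes the unadjusted shares were 7.43% higher and 3.51% lower.

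Markers of other cells that the sort could hold were counted the same way. Fibroblast markers summed to 24.1 and 21.3 CPM in Control against 58.1, 66.8 and 54.8 CPM in PRC1 i2KO. Of 5 tested, 3 (Col1a1, Pdgfra and Alx4) were higher throughout, against 14.6% of all tested genes. Alx4 was under 0.1 TPM in both controls, and of 390 tested protein-coding genes at that level 189 lay higher throughout. Pdgfra was at 3.37 and 2.22 CPM in Control against 32.5, 25.4 and 16.0 CPM. Col1a2, Dcn and Vcan overlapped between the groups, and Col3a1, Lum and Corin did not exceed 0.271 CPM in any library. Dcn and Vcan were highest in PRC1 i2KO 3, at 3.13 and 4.97 CPM, against at most 0.162 and 0.733 CPM in any other library. Upper follicle and sebaceous markers summed to 375 and 420 against 1104, 643 and 777 CPM, with 5 of 12 higher throughout, against 14.6% of all tested genes. Melanocyte markers summed to 205 and 160 against 108, 127 and 82.7 CPM, nearly all of it Mitf, with Tyrp1 at 0 in both controls. Schwann cell, endothelial and immune sums overlapped between the groups. Mural and muscle markers summed to 256 and 254 against 228, 244 and 219 CPM, nearly all of it Cspg4, with Acta1 at 0. The part of these cells in the channel values was not tested.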

How the data were processed

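Polyadenylated RNA of sorted cells was sequenced in 5 libraries, for which the authors deposited a single table of expected counts and TPM. Per the submitters' processing notes, which give no roles, STAR 2.7.9a, RSEM 1.3.3, DESeq2 1.38.2 and build mm39 were used. Strand setting and annotation are not given in the sources used here. The deposited expected counts (60.4% of them not whole) were rounded. Deposited TPM also correct for transcript length and shift with the transcripts assumed, so counts beside them show depth. All genes were fitted with edgeR 4.0.16 (R 4.3.3; TMM scaling, filterByExpr, quasi-likelihood F test, group only, Benjamini-Hochberg adjustment, threshold 0.05), and CPM use TMM-scaled totals. SE is that of the log2 fold change. DESeq2 1.42.0, limma-voom and limma 3.58.1 on log2(TPM + 1) and log2(TPM + 0.1), over features at 0.1 TPM in 2 libraries, were alternatives, as were other filters and scalings, left-out libraries and replicate blocks. One count equalled 0.0203 to 0.0793 CPM, and floors (3 counts) cover counting error only. Implied length is count over TPM divided by its library median over protein-coding genes with 100 counts in every library.

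Named genes are the 10 highest in control TPM, the 10 of smallest edgeR p among silent and among expressed members (5 silent members were tested) and the 3 on either side of 0.1 TPM. Others were named after their values were seen, and some genes are not reported here. The members and lists were chosen with earlier results of these data known, and the lists for differentiating epidermis, upper follicle and mitosis were added after the values were seen. In GENCODE M21, used for names and exons only, 2 members (Kcnab2 and Kcnk4) share exons with a gene on the same strand and 23 only with genes on the opposite strand, among them Kcnj15, Kcnk2, Kcnma1, Kcnmb4, Kcnk1, Kcne3, Kcnd3, Kcnj13 and Kcnj9. Without strand, reads of such pairs cannot be told apart.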

Additional observations from a re-analysis of the deposited data

How the results depend on the processing

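Counts of called channels were 0 higher and 0 lower under every setting run except 2, in which 1 was higher (no filter on low counts, 1, and DESeq2, 1), Kcna1 in both. By edgeR with each library left out in turn they were 0 and 0. With limma on log2(TPM + 1) 0 were called, also at log2(TPM + 0.1), with no filter (added after seeing the data) and with each library left out. The median of expressed channels moved from 0.09 to -0.20 on log2(TPM + 1) and to -0.62 on log2(TPM + 0.1). Protein-coding genes expressed in control moved to -0.18 and -0.26. By edgeR with 1 library left out the median of expressed channels lay between -0.22 and 0.059. Over protein-coding genes expressed in control it then lay between 0.060 and 0.13. The count of silent channels at the level in all PRC1 i2KO libraries was 1. It was 3, 2 and 0 at levels of 0.05, 0.5 and 1 TPM (of 18, 38 and 46 silent), 2 of 18 with TPM rescaled without mitochondrially encoded features, 4 when 2 of 3 libraries sufficed, 1 of 9 among genes with no control count, and between 2 and 6 with 1 library left out (6 of 29 without Control 2, 3 of 30 without Control 3, and 2 of 19 without each PRC1 i2KO library in turn). The same share of protein-coding features was 8.02%, 3.54% and 2.34% at those levels, 7.50% with the rescaling, 18.3% when 2 of 3 libraries sufficed and 6.03% with no control count. It was 10.8% without Control 2, 9.87% without Control 3, and 11.2%, 11.1% and 9.13% without PRC1 i2KO 1, 2 and 3. The cause was not tested, beyond the fewer libraries that must pass.

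Directions that reversed belonged to genes far from the threshold. Kcnma1 was at -0.76 and -0.84 with limma on log2(TPM + 1) and log2(TPM + 0.1) and between -0.36 and 0.91 with 1 library left out. Kcnh1 lay between -0.31 and 0.30 with 1 library left out. Kcna2 was at -0.40 with limma-voom and between -1.30 and 0.85 with 1 library left out. With a replicate block by title number 0 channels were called higher and 0 lower, Kcnh1 was at 0.074 and the median of expressed channels was 0.09. With a replicate block by description number 0 and 0 were called, Kcna2 was at -1.28 and that median was -0.03. Titles and descriptions number the controls differently, and deviations of same-numbered libraries correlated at 0.065 and 0.041 by title and at -0.024 and -0.065 by description, so the numbers were not taken as pairs. Control 3, at 11626313 counts, limits what can be called silent: 1 count there stood for 0.0793 CPM.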

Other observations

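Non-coding features named after potassium channel genes were not members, and 4 are in the table. Kcnq1ot1, the imprinted antisense RNA within Kcnq1, was at 188 and 179 CPM in Control against 185, 135 and 219 CPM in PRC1 i2KO (log2 fold change -0.03 ± 0.22, edgeR adjusted p = 0.976). Kcnq1 itself had 9 and 0 counts in Control against 0, 1 and 0 in PRC1 i2KO. Kcnd3os had 0 counts in both controls and 4, 26 and 0 counts in PRC1 i2KO, Kcnmb4os2 0 and 0 against 0, 1 and 4, and Kcnab3os 27 and 0 against 0, 0 and 4.

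Kcnd1 shows how far both units can part: Control 2 held 127 counts at 0.595 TPM and Control 3 held 6 counts at 0.604 TPM, and the implied transcript length differed 7.43-fold between libraries.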
